A study of Homo sapiens with 2 samples.

Results

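TP73 occupancy at the loci of 3 Ikaros family genes, IKZF1, IKZF2 and IKZF3, was read from a list of ChIP-seq peaks in TL-Om1 cells, a permanent human line grown from adult T-cell leukaemia. A peak was counted at a locus when its summit lay in the hg19 span of the gene or within 20 kb of it. This rule took 13 of the 18908 peaks of the list: 3 at IKZF1, 2 at IKZF2 and 8 at IKZF3. The gene spans were chromosome 7 from 50344000 to 50473000 for IKZF1, chromosome 2 from 213864000 to 214017000 for IKZF2 and chromosome 17 from 37913000 to 38021000 for IKZF3, each rounded to 1 kb.

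The study holds 2 libraries of formaldehyde-fixed TL-Om1 cells, with no treatment or genotype difference named: 1 from chromatin precipitated with an antibody against TP73 and 1 from whole cell extract. Peaks were called on the single ChIP library, and only the peak list was analysed here. The values below therefore carry no error between cultures, and no conditions were compared. The background library is whole cell extract by the labels but IgG by the peak names, so "control" below is whichever library the peak caller was given. TL-Om1 is 1 line, and a peak list holds no expression values against which its T-cell identity could be checked.

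TP73 is a member of the p53 family of transcription factors and binds DNA elements much like those of p53. The Ikaros family consists of zinc finger proteins that bind DNA, pair with one another through a second set of zinc fingers and, in lymphoid cells, both silence and activate genes together with chromatin remodelling complexes. IKZF1 encodes Ikaros, which is needed for early lymphoid development. IKZF2 encodes Helios, found in regulatory T cells and other T cells, and altered transcripts of it are known from adult T-cell leukaemia. IKZF3 encodes Aiolos, a regulator of later lymphoid stages. Ikaros and Aiolos are the proteins degraded in the presence of lenalidomide and related drugs.

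Fold enrichment below is the authors' ratio of the ChIP pileup to the control background at the summit, and the −log10 q-value is theirs as well. The ChIP reads over each summit and the control background were recovered from the deposited fold and p-value and are given per fragment length. That length was taken as 142 bp, the shortest width of a peak in the list. Over the whole list the fold had a median of 11.3, with quartiles of 8.31 and 18.7, and the reads had a median of 43, with quartiles of 31 and 73 and a range of 18 to 284. The intervals of reads are exact 95% Poisson intervals, which cover counting error only. Peaks are numbered along each gene in the direction of transcription, which runs toward higher coordinates in IKZF1 and toward lower ones in IKZF2 and IKZF3.

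TP73 peaks at the Ikaros family loci ranged from weak to moderately strong. Their folds ran from 7.32 to 30.4 with a median of 17.5, against 11.3 for all peaks, and the highest fold of the list was 81.6. A fold of at least 10 was reached by 9 of the 13, where 59.8% of all peaks reached it. A fold of at least 20 was reached by 4 of the 13, against 23.0% of all peaks. By the quartiles of the whole list, 6 of the 13 lay above the upper one, 4 between the quartiles and 3 below the lower one. The 13 peaks had a median of 60 reads against 43 for all peaks. At least 43 reads were reached by 7 of the 13 and by 51% of all peaks. The control background was at its genome-wide level for 10 of the 13 and for 51.9% of all peaks. The plot of fold shows the locus peaks spread between 7.32 and 30.4 on a range that reached 81.6, with none among the strongest of the list.

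**Figure D1:**
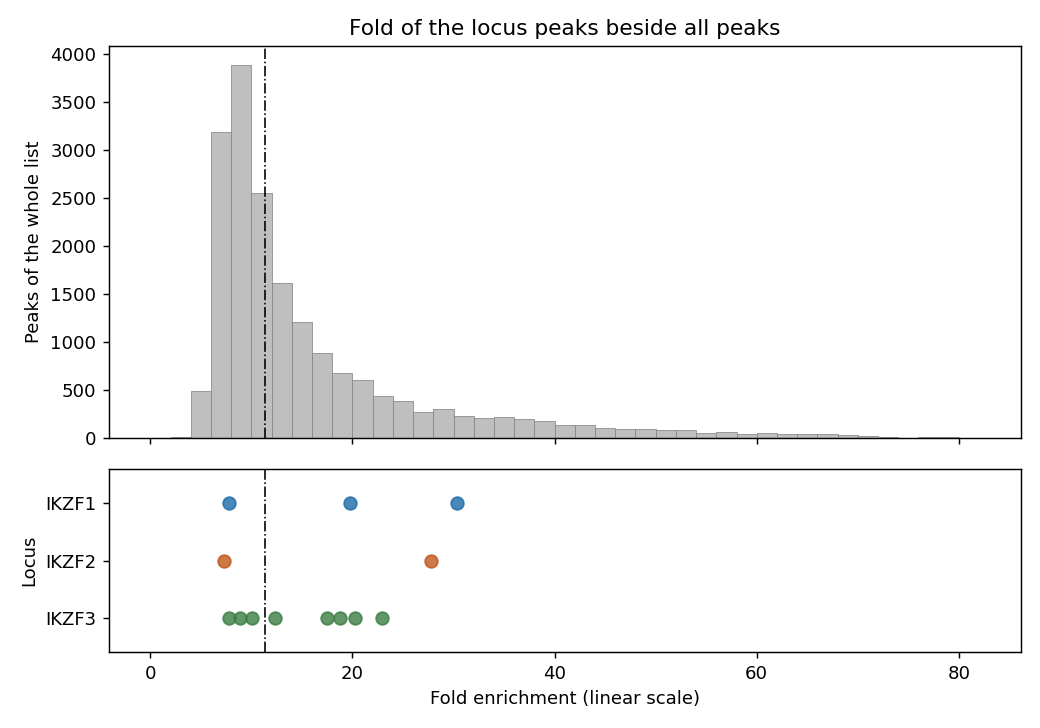
Fold enrichment of all 18908 peaks in bins of 2 (upper panel, number of peaks) and of the 13 peaks at IKZF1, IKZF2 and IKZF3 (lower panel, 1 point per peak). The dash-dotted line is the median fold of all peaks, 11.3, and the locus peaks lie between 7.32 and 30.4.

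By reads, the lowest and the highest of the 13 peaks both lay inside the gene spans. There were 26 to 34 ChIP reads over the summits of 5 peaks, and all 5 were inside a span. At the other end, 4 peaks had 95 to 105 reads and were likewise inside a span, at least 1 in each gene. Between these lay the 4 peaks of the flanks, with 42 to 79 reads. All 4 flank peaks reached a fold of at least 10, and their median was 18.6. Of the 9 peaks inside the spans 5 reached it, and the median of the 9 was 10.03. The share of all peaks was 59.8%, and the difference was not tested. IKZF3 peak 2 lay 0.54 kb inside its span and IKZF3 peak 7 lay 0.63 kb beyond it. Both distances are within the 1 kb rounding of the spans, so their side is uncertain.

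IKZF1, the Ikaros gene, had 1 peak before its 5′ end and 2 inside its span. Peak 1 lay at chr7:50326142-50326441, 17.7 kb before the 5′ end, with a fold of 19.8, a −log10 q-value of 66.4 and 68 ChIP reads (interval 52.8 to 86.2). Peak 2, at chr7:50418471-50418629, lay 74.5 kb into the gene and was weak, with a fold of 7.74, a −log10 q-value of 14.7 and 26 reads (interval 17.0 to 38.1). Peak 3, at chr7:50446845-50447138, lay 26.0 kb before the 3′ end and was the strongest peak of all 3 loci, with a fold of 30.4, a −log10 q-value of 121.8 and 105 reads (interval 85.9 to 127.1).

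Peak 2 was the lowest of the 3 IKZF1 peaks, with an interval that overlapped neither of the others, and peak 3 was higher than peak 1, with intervals that shared only their edges. Of the whole list, 11.9% of peaks had a higher fold than peak 3 and 81.6% a higher fold than peak 2. No peak overlapped the 5′ end of IKZF1 as the rule gives it. Before peak 1 the next summit was 784.6 kb away. Such a distance or a longer one separated 3.84% of neighbouring summits in the list, whose median spacing was 48.2 kb.

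IKZF2, the Helios gene, had 2 peaks, both in the first part of the gene, and none in its flanks. Peak 1, at chr2:213983712-213984246, lay 33.1 kb into the gene with a fold of 27.8, a −log10 q-value of 107.4 and 96 reads (interval 77.8 to 117.2). It was the widest of the 13 peaks, at 535 bp. Among the 928 peaks of the list with 90 to 110 reads the median width was 344 bp, with quartiles of 303 and 429 bp, and 11.9% were at least as wide. Its summit sat toward the low-coordinate edge, at 29.3% of the width, where the quartiles of all peaks were 42.9% and 56.0%. These quartiles were not matched for reads. IKZF2 peak 2 (32.7%) and IKZF3 peaks 1 (38.6%) and 5 (33.5%) also lay below the lower quartile, and IKZF1 peak 1 (61.8%) above the upper one.

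Peak 2 of IKZF2, at chr2:213969344-213969525, lay 14.5 kb further into the gene and was the weakest of the 13 by fold. It had a fold of 7.32, a −log10 q-value of 15.4 and 29 reads (interval 19.4 to 41.7) over 3 local control reads. The remaining 105.4 kb of the IKZF2 span, from peak 2 to the 3′ end, held no summit, and neither did the 33.1 kb from the 5′ end to peak 1. Empty stretches of such length are common on chromosome 2, where 48.8% of consecutive windows of 193 kb held no summit.

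The strongest peaks near IKZF2 lay outside its 20 kb flanks. On the 3′ side a peak at chr2:213833166-213833904, 30.5 kb from the end of the gene and 10.5 kb outside the flank, had a fold of 41.5 and 169 reads. On the 5′ side a peak at chr2:214092114-214092614, 75.4 kb from the start of the gene, had a fold of 62.1 and 216 reads. Both exceeded every peak at the 3 loci, and 1.30% of all peaks had a higher fold than the second. In RefSeq's gene order the protein-coding neighbours of IKZF2 are ERBB4 on the 3′ side and SPAG16 on the 5′ side.

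IKZF3, the Aiolos gene, carried peaks at its 5′ end, in its middle and at its 3′ end. Of its 8 peaks, 1 lay before the 5′ end, 5 inside the span and 2 beyond the 3′ end. IKZF3 is the only 1 of the 3 genes with a peak at the 5′ end of its span as the rule gives it. Any further transcription starts of the 3 genes were not examined. Peak 2, at chr17:38020295-38020651, had its summit 0.54 kb inside that end, a distance within the rounding of the span. It had a fold of 18.7, a −log10 q-value of 86.1 and 95 reads (interval 76.9 to 116.1). Peak 1, at chr17:38023311-38023664, was 2.45 kb before the 5′ end, on the side where ZPBP2 is the next protein-coding gene in RefSeq's order. This peak was not assigned to either gene. It had a fold of 17.5, a −log10 q-value of 55.2 and 60 reads (interval 45.8 to 77.2). The 2 summits were 2.99 kb apart and the intervals of their reads shared only their edges, that of peak 2 being the higher.

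The middle of IKZF3 held a close pair of unequal peaks. Peak 4, at chr17:37974742-37975187, lay 46.0 kb into the gene and had a fold of 20.3, a −log10 q-value of 97.1 and 103 reads (interval 84.1 to 124.9). Peak 3, at chr17:37975663-37975868, had its summit 773 bp away, with 475 bp between the edges of the 2 peaks, and had a fold of 10.03 and 34 reads (interval 23.6 to 47.5). The read intervals of peaks 3 and 4 did not overlap. Whether they are separate sites or parts of a single enriched stretch was not tested.

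Toward the 3′ end of IKZF3, 2 peaks inside the gene had fewer reads than the 2 beyond it, and 1 of the latter stood apart from the rest. Peak 5, at chr17:37934388-37934529, had a fold of 7.74 and 26 reads. Its width of 142 bp was the shortest in the list, the value taken above as the fragment length. Peak 6, at chr17:37926277-37926497 and 13.4 kb before the 3′ end, had a fold of 8.88 and 30 reads (interval 20.2 to 42.8). Peak 7, at chr17:37912235-37912502, lay 0.63 kb beyond the 3′ end with a fold of 12.3 and 42 reads (interval 30.3 to 56.8). Peak 8, at chr17:37910611-37910971 and 2.22 kb beyond the 3′ end, had the highest fold of the locus, 22.9, with a −log10 q-value of 82.6 and 79 reads (interval 62.6 to 98.5). The intervals of peaks 5, 6 and 7 overlapped one another, and that of peak 8 lay above all 3. GRB7 is the next protein-coding gene on this side in RefSeq's order, and peaks 7 and 8 were not assigned to either gene.

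**Figure D2:**
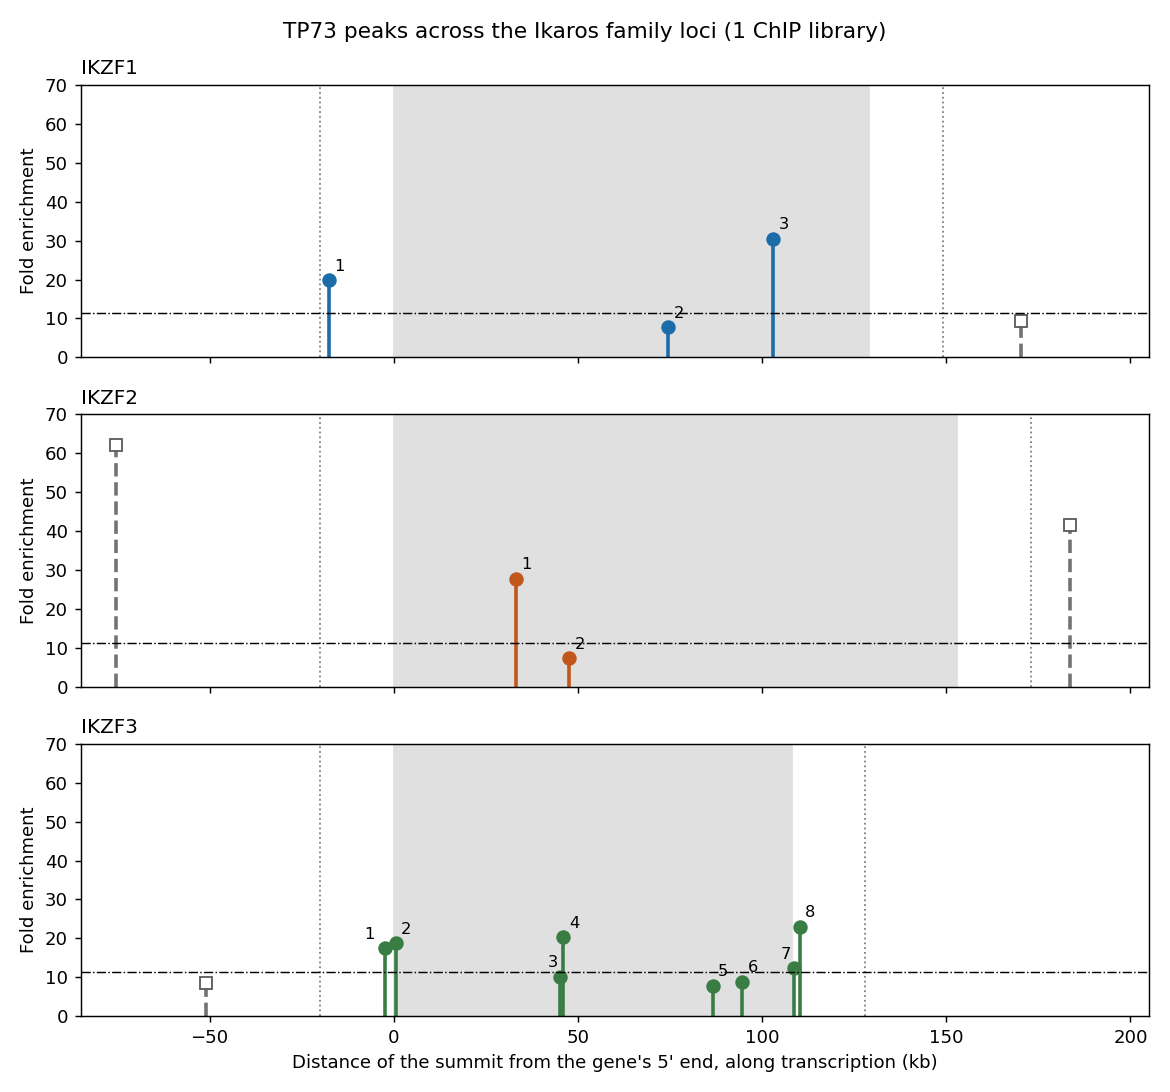
Fold enrichment of each peak (vertical axis) against the distance of its summit from the gene's 5′ end along transcription in kb (horizontal axis), with the gene span shaded and the 20 kb flanks ended by dotted lines. Filled circles are the numbered peaks of each locus, open squares the nearest peaks outside the flanks, and the dash-dotted line the median fold of all peaks. The nearest outside peaks on the 5′ side of IKZF1 and the 3′ side of IKZF3 lie beyond the plotted range and are not drawn. The open squares beside IKZF2, at folds of 62.1 and 41.5, stand above every filled circle.

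By reads, the leading peaks of the 3 genes could not be put in order. IKZF1 peak 3 had 105 reads, IKZF3 peak 4 had 103, IKZF2 peak 1 had 96 and IKZF3 peak 2 had 95, and all 4 intervals overlapped. The fold put them further apart, at 30.4, 20.3, 27.8 and 18.7, because the control background under them differed. It was 2.41 reads, the genome-wide level and the lowest the caller used, at IKZF1 peak 3 and IKZF2 peak 1, and 4 local control reads at IKZF3 peaks 2 and 4. Over the genome-wide level, the folds of IKZF3 peaks 2 and 4 would have been 27.5 and 29.8.

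Within IKZF3 the choice of measure therefore changed the leading peak. Peak 8 led by fold, with 22.9 against 20.3 for peak 4, and peak 4 led by −log10 q-value, with 97.1 against 82.6. The read intervals of peaks 4 and 8 overlapped. The background was the genome-wide level for 6 of 8 peaks at IKZF3, against 69.9% of all peaks on chromosome 17. It was that level for all 3 peaks at IKZF1, against 32.8% on chromosome 7, and for 1 of 2 at IKZF2, against 47.3% on chromosome 2.

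**Figure D3:**
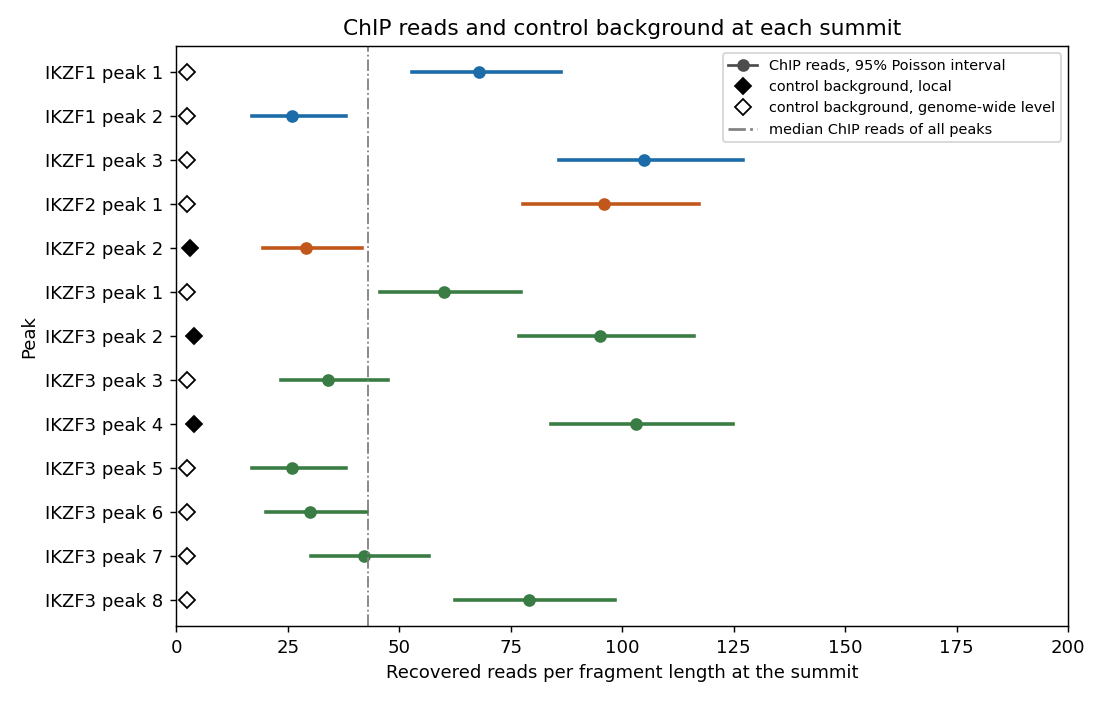
ChIP reads over each of the 13 summits with exact 95% Poisson intervals (circles and lines) and the control background under them (diamonds), per fragment length. The dash-dotted line is the median of all peaks, 43 reads. The 4 leading peaks, with 95 to 105 reads, have overlapping intervals, and black diamonds mark the 3 summits with local control reads above the genome-wide level.

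Close pairs of peaks were seen at IKZF3. There, 3 of 7 neighbouring summit pairs were under 5 kb apart, a limit chosen after the spacings were seen, against 17.6% of all neighbouring summits in the list. That share is not matched for density: the autosomes had 6.65 peaks per Mb and the IKZF3 locus 54.1. Close pairs and density are therefore not separate observations. At IKZF1 the spacings were 92.2 and 28.4 kb, and at IKZF2 the spacing was 14.5 kb.

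The IKZF3 locus was also the densest. Its 8 summits in 148 kb gave 54.1 peaks per Mb (95% Poisson interval 23.3 to 106.5), 4.82 times the 11.2 per Mb of chromosome 17 (2.08 to 9.51). Of 548 consecutive windows of 148 kb along chromosome 17, 2.55% held at least 8 summits, and 39.96% held none. IKZF1 had 17.8 peaks per Mb (3.66 to 51.9), 2.68 times the 6.63 per Mb of chromosome 7 (0.552 to 7.82), and 14.5% of 939 windows of 169 kb on that chromosome held at least 3 summits. IKZF2 had 10.4 peaks per Mb (1.26 to 37.4), 1.72 times the 6.04 per Mb of chromosome 2 (0.208 to 6.20), and 27.8% of 1256 windows of 193 kb held at least 2.

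Relative to the chromosome, only the interval of IKZF3 lay above 1, whereas those of IKZF1 and IKZF2 included it. The intervals of peaks per Mb of the 3 loci overlapped, and their differences were not tested. The intervals treat peaks as independent, although summits of this list cluster, and the windows were not matched for gene content. The hg19 span of IKZF1 was 27.4 kb longer than the gene in the RefSeq table of the GRCh38 build, whereas the spans of IKZF2 and IKZF3 were 0.2 and 1.4 kb longer. With the GRCh38 length the density at IKZF1 was 3.19 times that of chromosome 7. Where in the span the additional length lies was not determined here. The distances of the IKZF1 peaks from the gene's ends and from one another are in hg19 coordinates and may include it.

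**Figure D4:**
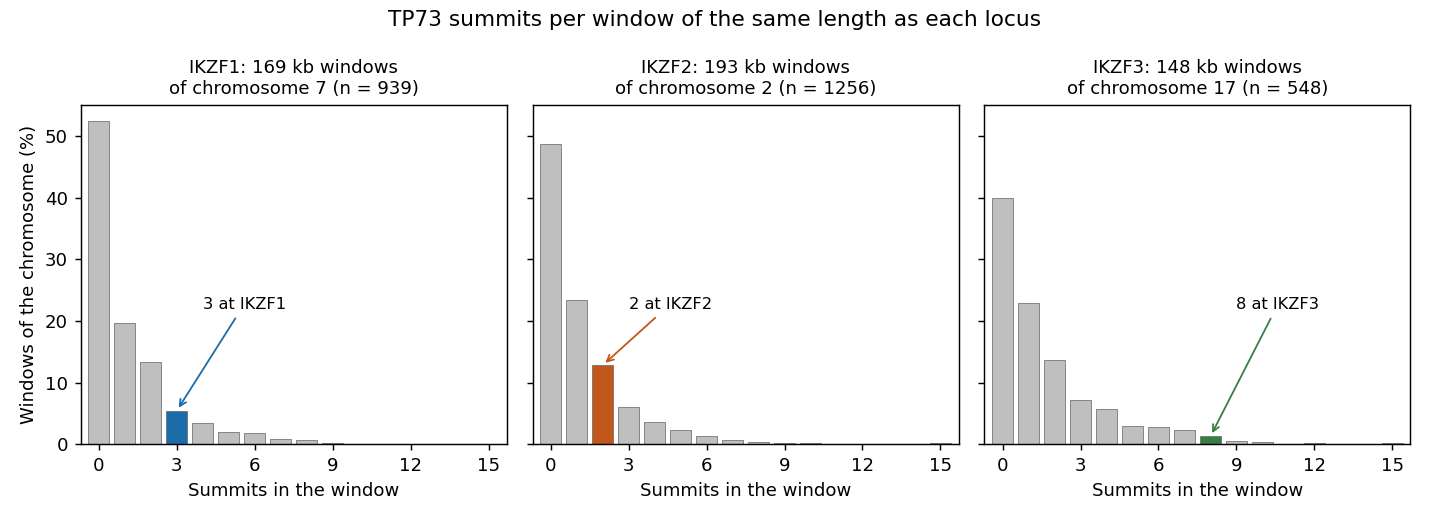
Share of consecutive windows (vertical axis, percent) by number of TP73 summits (horizontal axis) on chromosomes 7, 2 and 17, with windows as long as each locus and its flanks. The coloured bar holds windows with as many summits as the locus: 3 for IKZF1, 2 for IKZF2 and 8 for IKZF3, which lies in the sparse upper end of its chromosome's windows.

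At the edges of the rule, the peak nearest to a limit on the inside was IKZF1 peak 1, 2.33 kb inside with a fold of 19.8. On the outside the nearest was the peak on the 3′ side of IKZF2 with a fold of 41.5. The next ones outside were a peak 21.4 kb beyond the 3′ flank of IKZF1, with a fold of 9.46 and 32 reads, and a peak 31.0 kb beyond the 5′ flank of IKZF3, with a fold of 8.60 and 29 reads.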

How the data were processed

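The submitters' processing notes list Bowtie2, SAMtools, MACS2 and the hg19 build. Their settings and the treatment of duplicates were not given in the sources used here. Per the labels, reads were single-end and 50 bases long. The deposited list gives for each peak a fold (ratio), the −log10 of its p-value and q-value, and a score, all by the authors' peak caller. The score was not used.

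The fold, (pileup + 1) / (background + 1), and the p-value, a Poisson tail, were solved together for each peak. A solution existed for all 18908, and more than 1 for 101, where the one nearest to whole reads was kept. A ChIP read was worth 0.975 units of pileup. Of 13897 peaks not used to fit that step, 100% gave whole reads within 0.01, where 2% would by chance. Those of them at the genome-wide background can repeat the values of the fitted peaks. Only those at other backgrounds are a separate check of the step. Tested on 1998 simulated peaks made with the same formulas, 100% were recovered.

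Chromosome densities use the distance between the outermost summits. The rule names every peak of a locus with up to 8, and the nearest outside. The genes, lists and comparisons were chosen with earlier results of these data known. Strands of IKZF1 and IKZF2 are from RefSeq, that of IKZF3 from general knowledge. Peak sequences and motifs, which need hg19 sequence, and the other listed genes, IKZF4 and IKZF5 among them, were not analysed here. Alternatives were other flanks, limits on q-value and fold, overlap in place of summits, merging, reads in place of fold, and the GRCh38 gene length. Python 3.11.15, scipy 1.17.1, pandas 2.3.3, numpy 2.4.6 and matplotlib 3.10.9 were used.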

Additional observations from a re-analysis of the deposited data

How the results depend on the processing

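Of 67 alternative values of peak number, median fold, density over the chromosome and share past a fold, 63 stayed within 1.5 times the reported value or within its interval. The number at IKZF3 was 5 in place of 8 without flanks. At a −log10 q-value of at least 20, IKZF2 kept 1 of 2 peaks, with a fold of 27.8 in place of the median of 17.6, and a flank of 50 kb, which takes in the peak with a fold of 41.5, also gave a median of 27.8. The density at IKZF3 was 3.43 to 5.58 times that of its chromosome over all alternatives. The GRCh38 gene length was added after seeing the data. The motif alternative was not run, since hg19 sequence was not used. Leaving out a library was not an option with 1 a group. No paired analysis was possible because there is only 1 ChIP sample. Weaker sites than the 18 reads of the weakest peak in the list were not analysed here.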

Other observations

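Beyond the flanks, up to 200 kb from each gene, each side held between 0 and 4 peaks. On the 5′ side of IKZF1 these 180 kb held 0 peaks, and on its 3′ side, where FIGNL1 and DDC follow in RefSeq's gene order, 2 peaks with a median fold of 9.17. On the 5′ side of IKZF2 there were 3 peaks, of which 2 had a fold of at least 20, and on its 3′ side 1. That fold was reached by 23.0% of all peaks. On the 5′ side of IKZF3, where ZPBP2, GSDMB and ORMDL3 follow in that order, there were 4 peaks with a median fold of 10.7, the strongest at chr17:38077484-38077794 with a fold of 19.7 and 68 reads. The 3′ side of IKZF3, toward GRB7 and ERBB2, had 1 peak, with a fold of 7.74. The sides thus had 0 to 22.2 peaks per Mb, beside 6.63 on chromosome 7, 6.04 on chromosome 2 and 11.2 on chromosome 17. Of the 169 kb windows of chromosome 7, 52.5% held no summit. No test was made of these counts, and with so few peaks they do not show that the surroundings differ.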
